A study of Homo sapiens with 40 samples.

Results

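Galectin, cytoskeleton and matrix genes with low log ratios in the myeloma line SKMM1 after induction of an shRNA against CASP10 are described here. The set has 9 genes (LGALS1, TRAF3IP3, CKLF, DOCK2, COTL1, PPP1R18, MXRA7, TIMP1 and COL7A1), measured by 14 of the 15246 probes, out of 4604 named genes and 9681 features in all. The genes were chosen by their measured values, namely low ratios in SKMM1 against uninduced cells and against a control shRNA, so their SKMM1 values are given as a description. Counts of calls that fits over all features gave for SKMM1 are printed beside the share of all features and test nothing about these genes. COTL1 was picked partly on its difference between SKMM1 and KMS12, and TIMP1 and COL7A1 partly on their ratios over the myeloma lines.

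The study induced knockdown of CASP10, which encodes the initiator protease caspase-10, in human myeloma lines and used B-cell lymphoma lines as controls. RNA was compared on 40 2-colour lymphochip arrays, spotted arrays rich in genes of lymphoid cells. Every cell carried a retroviral hairpin that doxycycline switches on, also in the uninduced and control cells, and induced cells received 20 ng/ml of doxycycline for 24 to 120 hours (days 1 to 5). The Cy5 channel held RNA of the induced cells, and Cy3 marked that of the matched line, hairpin and day without induction. The groups were SKMM1 with shCasp10-2 (12 arrays in 3 repeats), H929 with shCasp10-2 (8 arrays in 2 repeats) and with shCasp10-3 (4 arrays), KMS12 with shCasp10-2 (4 arrays) and with shCasp10-3 (4 arrays), and the lymphoma lines OCI-Ly7 (2 arrays) and OCI-Ly19 (2 arrays), both with shCasp10-2. On 4 further arrays the Cy3 channel held SKMM1 cells induced to express a control hairpin, shCtrl, which also received doxycycline. SKMM1 was tested with a single hairpin, and nothing in the labels says that the days of a course came from separate cultures. The values are deposited log ratios, read as log2 of Cy5 over Cy3, so that a negative value is lower in induced cells; the dyes are stated, whereas the direction and the base are likely but not stated. A ratio holds no level, so the lines' own marker levels could not be checked and no gene's level is set against another's.

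Galectin-1, the product of LGALS1, is a lectin that binds galactose-bearing glycans on cell surfaces and matrix proteins and is known for its effects on lymphocyte survival and adhesion. Lymphoid cells move by remodelling actin under the small GTPase Rac, which exchange factors such as DOCK2 load with GTP. Myeloma cells live in the bone marrow, where collagens, metalloproteinases and their inhibitors, the TIMPs, shape the matrix around them.

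The RefSeq promoter table (GRCh38.p14) held 14 start sites for 8 of the 9 genes; LGALS1 was not listed. The 250 bases before a start site are printed for 3 genes: TRAF3IP3, whose ratios were among the lowest of the set in SKMM1, DOCK2, the Rac exchange factor, and COL7A1, the gene that varied apart from the others. Capitals mark matches to the NF-kB consensus on either strand. The TRAF3IP3 stretch is chr1:209755803-209756052 (plus strand), that of DOCK2 is chr5:169637025-169637274 (plus strand) and that of COL7A1 is chr3:48595330-48595579 (minus strand), each written 5′ to 3′ in the direction of transcription.
TRAF3IP3: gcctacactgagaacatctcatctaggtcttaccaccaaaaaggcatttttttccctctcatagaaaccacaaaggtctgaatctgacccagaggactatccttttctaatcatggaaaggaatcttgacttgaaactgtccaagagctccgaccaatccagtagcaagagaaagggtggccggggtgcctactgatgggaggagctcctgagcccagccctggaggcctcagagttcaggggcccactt
DOCK2: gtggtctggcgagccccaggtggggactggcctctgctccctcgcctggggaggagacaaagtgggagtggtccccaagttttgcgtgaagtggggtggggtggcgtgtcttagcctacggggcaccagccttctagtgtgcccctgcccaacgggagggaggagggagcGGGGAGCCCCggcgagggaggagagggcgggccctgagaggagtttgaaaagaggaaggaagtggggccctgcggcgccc
COL7A1: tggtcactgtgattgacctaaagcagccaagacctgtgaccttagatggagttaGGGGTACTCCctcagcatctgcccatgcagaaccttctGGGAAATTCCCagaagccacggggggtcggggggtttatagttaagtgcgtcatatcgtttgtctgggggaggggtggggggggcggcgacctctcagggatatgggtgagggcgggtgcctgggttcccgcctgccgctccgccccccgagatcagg
The NF-kB consensus was found in 3 of the 14 stretches, those of DOCK2, COL7A1 and 1 start of MXRA7, and in 9.96% of all 35116 promoter stretches of the same length. In COL7A1 it matched at 2 places, and at the place closer to the start the matches on the 2 strands overlapped. The AP-1 letters TGANTCA were in 0 of the 14 and in 6.57% of all, and the CArG box of SRF was in 0 of the 14 and in 1.16% of all. The SP1 letters GGGCGG were in 7 of the 14, from 6 genes, and in 42.6% of all. The ETS letters CCGGAAG were found before COTL1 alone (8.52% of all), and the TATA letters TATAAA before COL7A1 alone (10.7% of all). All motifs were searched on both strands, and a match is a description of the letters only.

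The arrays differed in spread, which bears on every value below. On 12 arrays, called wide here, more than 10% of the probes lay beyond a log2 ratio of 3 in either direction, and 28 arrays were not wide. In SKMM1 the wide arrays were all 4 of repeat 2 and day 4 of repeat 3, and the 4 arrays against shCtrl were not wide. The arrays of SKMM1 repeats 2 and 3 went against each other over all probes, with Pearson's r between -0.52 and -0.16 (median -0.38) over 16 pairs, 11 of them under -0.3. Since the labels give both the same dyes and the same condition, the direction of these repeats is not settled, and values with the sign of either turned stand beside the results. Repeat 1 correlated with the arrays against shCtrl at a median r of 0.51 (16 pairs, -0.20 to 0.72), with repeat 3 at 0.33 (-0.24 to 0.52) and with repeat 2 at -0.29 (-0.42 to 0.37). CASP10 itself was at -0.89 to -0.25 in repeat 1, -2.82 to -0.84 in repeat 2, -0.30 to 0.35 in repeat 3 and -0.74 to -0.43 against shCtrl, so it was above 0 on 1 of the 16 SKMM1 arrays, day 4 of repeat 3. In H929 it was at -5.60, -3.56, -1.31 and -0.60 on the wide arrays. On the other 8 H929 arrays it ran from -0.38 to 0.13, with values of 0.13 and 0.025 above 0. In KMS12 it was at -0.96 to -0.24. On days 3 and 4 it was at 2.04 and 1.5 in OCI-Ly7 and at 0.12 and -0.24 in OCI-Ly19. The library labelled OCI-Ly7 with shCasp10-2 thus showed a higher ratio of the targeted gene on both days.

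LGALS1, the galectin of the set, had log2 ratios of -0.56, -1.26, -1.53 and -1.34 on days 1 to 4 of SKMM1 repeat 1. It was at -0.42, -1.53, -0.99 and -1.31 on days 2 to 5 of repeat 2 and at -0.37, -0.52, -1.34 and -0.64 on days 2 to 5 of repeat 3. Against shCtrl it was at -0.90, -1.62, -1.58 and -1.83 on days 1 to 4. All 16 SKMM1 arrays were thus below 0, and LGALS1 was the only one of the 9 genes below 0 on all 12 arrays against uninduced cells, a pattern held by 0.795% of the features. With the sign of repeat 2 turned COTL1 alone of the 9 genes was below 0 on all 12 arrays (0.651% of the features), and with that of repeat 3 turned 0 of the 9 were (1.28%). In H929 its 12 arrays ran from -0.51 to 0.70 (median -0.22) and in KMS12 its 8 arrays ran from -0.67 to 0.25 (median -0.001). In lymphoma it was at -0.37 and -0.19 on days 3 and 4 of OCI-Ly19 and at 2.66 and 0.12 on days 3 and 4 of OCI-Ly7. Of its 2 probes on OCI-Ly7 day 3, 1 read 5.34 and the other -0.019, so the high mean rests on a single probe of a wide array.

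TRAF3IP3 encodes an adaptor that binds TRAF3, a regulator of NF-kB signalling downstream of TNF receptors. Its ratios were -0.66, -1.64, -1.82 and -1.51 on days 1 to 4 of SKMM1 repeat 1, then 0.11, -0.12, 0.037 and 0.52 in repeat 2 (days 2 to 5), with -0.66, -0.37, -1.20 and -0.68 in repeat 3 (days 2 to 5). Against shCtrl they were -1.22, -2.17, -2.0 and -2.06 on days 1 to 4. The day 2 value against shCtrl was the lowest of any of the 9 genes on an SKMM1 array. Repeat 2 stood apart, with 3 of its 4 arrays above 0. The other lines ran from -0.61 to 0.45 in H929 (median -0.16), -0.79 to -0.020 in KMS12 (median -0.33) and -0.50 to 0.30 in lymphoma (median -0.12).

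CKLF encodes a secreted chemokine-like factor of the CMTM family. It was at -0.24, -1.20, -1.48 and -1.38 on days 1 to 4 of SKMM1 repeat 1 and at -1.47, -1.95, -1.54 and -1.97 against shCtrl. In repeats 2 and 3 it ran from -1.08 to 0.46 and from -0.58 to 0.034. In the other lines CKLF ran from -0.70 to 0.51 in H929, -0.36 to 0.095 in KMS12 and -0.79 to 0.097 in lymphoma.

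**Figure D1:**
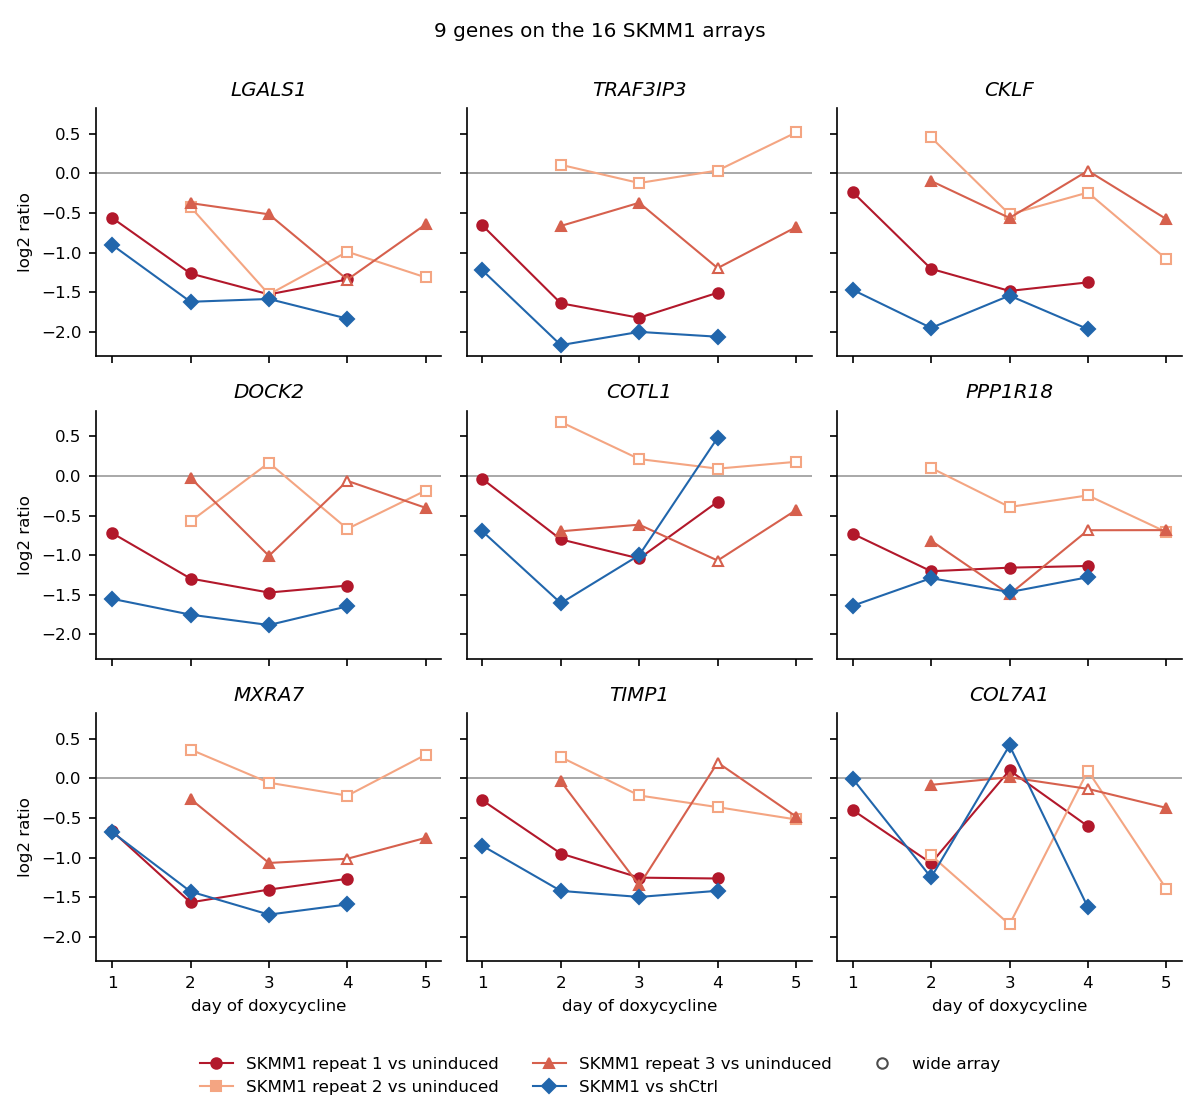
Log2 ratio (vertical axis) of each of the 9 genes by day of doxycycline (horizontal axis) on the 16 SKMM1 arrays, with 1 point for each array, lines joining the days of a course, and hollow points for wide arrays. On days 2 to 4 of repeat 1 and against shCtrl, 7 of the genes sit between -2.17 and -0.95, while COTL1 and COL7A1 change from day to day, and LGALS1 is below 0 on all 16 arrays.

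Among the cytoskeletal genes, DOCK2, the Rac exchange factor of blood cells that lymphocyte migration needs, was at -0.72, -1.30, -1.47 and -1.38 on days 1 to 4 of SKMM1 repeat 1. It was at -0.57, 0.17, -0.67 and -0.18 on days 2 to 5 of repeat 2, at -0.024, -1.01, -0.062 and -0.40 on days 2 to 5 of repeat 3, and at -1.55, -1.75, -1.88 and -1.65 against shCtrl. The values against shCtrl spanned a narrow range, whereas repeats 2 and 3 each held arrays near 0. In H929 the 4 wide arrays were at -5.72, -5.21, -4.85 and -4.91, against a range of -1.17 to 1.29 on its other 8 arrays (median -0.23). The lowest DOCK2 ratios of the study were thus in H929 and not in SKMM1, and each lay on a wide array. KMS12 ran from -0.96 to 1.61 and lymphoma from -1.75 to -0.29.

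COTL1 encodes a coactosin-like protein that binds filamentous actin. It was at -0.039, -0.80, -1.04 and -0.33 on days 1 to 4 of SKMM1 repeat 1, at 0.68, 0.21, 0.092 and 0.18 on days 2 to 5 of repeat 2 and at -0.70, -0.62, -1.07 and -0.43 on days 2 to 5 of repeat 3. Against shCtrl it was at -0.70, -1.61, -1.0 and 0.48 on days 1 to 4. All 4 arrays of repeat 2 and day 4 against shCtrl were above 0, and the other 11 SKMM1 arrays were below. In KMS12 it was above 0 on 7 of 8 arrays (-1.12 to 0.75, median 0.46), the exception being the wide day 1 array with shCasp10-2. In H929 it ran from -0.36 to 0.65 (median 0.048) and in lymphoma from -1.01 to -0.024 (median -0.23).

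PPP1R18 encodes phostensin, which brings protein phosphatase 1 to actin filaments. It was at -0.73, -1.20, -1.16 and -1.14 on days 1 to 4 of SKMM1 repeat 1, at 0.10, -0.39, -0.25 and -0.71 on days 2 to 5 of repeat 2 and at -0.82, -1.50, -0.69 and -0.68 on days 2 to 5 of repeat 3. Against shCtrl it was at -1.64, -1.29, -1.47 and -1.28. The 7 SKMM1 arrays against uninduced cells that were not wide ran from -1.50 to -0.68, below every such array of H929 (-0.44 to 0.12), KMS12 (-0.56 to 0.30) and lymphoma (-0.32 to 0.074). PPP1R18 was the only one of the 9 genes separated from all 3 in this way with the signs as deposited. With the sign of repeat 3 turned, 0 of the 9 genes lay below every such array of H929, of KMS12 or of lymphoma, as 0.031%, 0.155% and 4.29% of the features did.

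**Figure D2:**
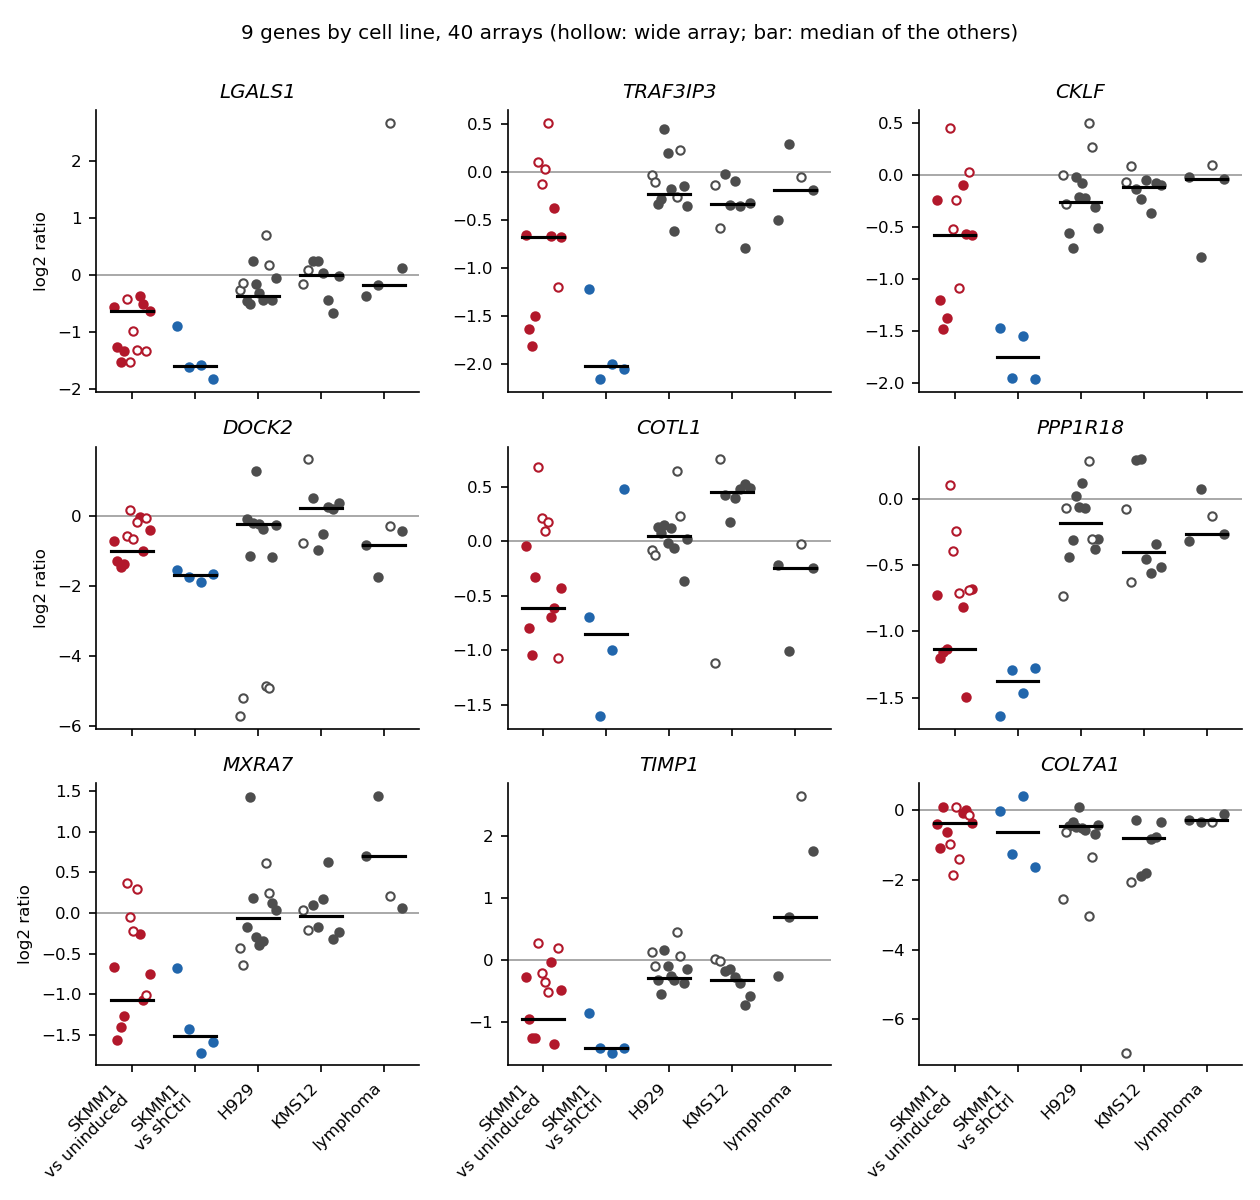
Log2 ratio (vertical axis, scaled for each gene) of the 9 genes on all 40 arrays by line and comparator (horizontal axis). Each point is an array, hollow where wide, and the bar is the median of the arrays that are not wide; with signs as deposited PPP1R18 separates SKMM1 against uninduced cells from the other lines on the filled points, and the lowest DOCK2 and COL7A1 points are hollow ones of H929 and KMS12.

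The matrix genes were MXRA7, named for its association with matrix remodelling, TIMP1, an inhibitor of metalloproteinases, and COL7A1, the collagen of the fibrils that anchor epithelia to the tissue below. MXRA7 was at -0.66, -1.57, -1.40 and -1.27 on days 1 to 4 of SKMM1 repeat 1, at -0.22 to 0.37 in repeat 2, at -1.07 to -0.26 in repeat 3 and at -0.68, -1.43, -1.72 and -1.59 against shCtrl. TIMP1 was at -0.28, -0.95, -1.25 and -1.26 on days 1 to 4 of repeat 1, at -0.52 to 0.27 in repeat 2, at -1.35 to 0.20 in repeat 3 and at -0.85, -1.42, -1.50 and -1.42 against shCtrl. Both were lower on days 2 to 4 than on day 1 in repeat 1 and against shCtrl. Outside SKMM1, MXRA7 ran from -0.64 to 1.43 in H929, -0.33 to 0.63 in KMS12 and 0.057 to 1.44 in lymphoma. TIMP1 ran from -0.54 to 0.45 in H929, -0.72 to 0.022 in KMS12 and -0.26 to 2.65 in lymphoma. MXRA7 was above 0 on all 4 lymphoma arrays and TIMP1 on 3 of them.

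COL7A1 did not share the pattern of the other genes. It was at -0.40, -1.07, 0.10 and -0.60 on days 1 to 4 of SKMM1 repeat 1, at -0.97, -1.84, 0.096 and -1.39 in repeat 2 (days 2 to 5), at -0.081, 0.015, -0.13 and -0.37 in repeat 3 (days 2 to 5), and at -0.004, -1.25, 0.42 and -1.63 on days 1 to 4 against shCtrl. Each course but repeat 3 held a day above 0 beside days that were far lower. It was also below 0 in the other lines, at -3.02 to 0.094 in H929 (below 0 on 11 of 12 arrays), -6.96 to -0.28 in KMS12 (8 of 8) and -0.33 to -0.092 in lymphoma (4 of 4). On the arrays that were not wide its median was -0.37 in SKMM1 against uninduced cells, -0.45 in H929, -0.79 in KMS12 and -0.27 in lymphoma, so SKMM1 was not the line with the lowest COL7A1 ratios.

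Ranks within each array do not change with its centring or scale, but a heavy tail of an array moves them: LGALS1 at -1.53 stood at percentile 0.17 of all features on day 3 of SKMM1 repeat 1 and at 36.5 on day 3 of the wide repeat 2. On days 2, 3 and 4 of SKMM1 repeat 1 the median of the 9 genes stood at percentile 0.909, 0.279 and 1.05 of all features, and on day 1 at 12.8. Against shCtrl the median percentile was 6.18 on day 1 and 1.16, 1.28 and 0.842 on days 2 to 4. In repeat 3 it was 16.8, 7.38, 11.5 and 1.78 on days 2 to 5. The rank was thus lower after day 1 in both courses that include that day. All 9 genes were in the lowest 10% of features on 3 SKMM1 arrays (repeat 1 day 2, repeat 3 day 5 and day 2 against shCtrl). In repeat 2 the median percentile was 76.2, 63.3, 55.9 and 50.1 on days 2 to 5. Between 10.2% and 30.5% of the probes of an array lay below -3 there. The part of this low tail in the ranks was not tested, and nothing is read from them. On day 2 of repeat 2 the median log2 ratio of the 9 genes was 0.109, with 3 genes below 0. On the other 24 arrays the median percentile ran from 12.9 (H929 repeat 2, day 5) to 91.5 (H929 with shCasp10-3, day 2).

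**Figure D3:**
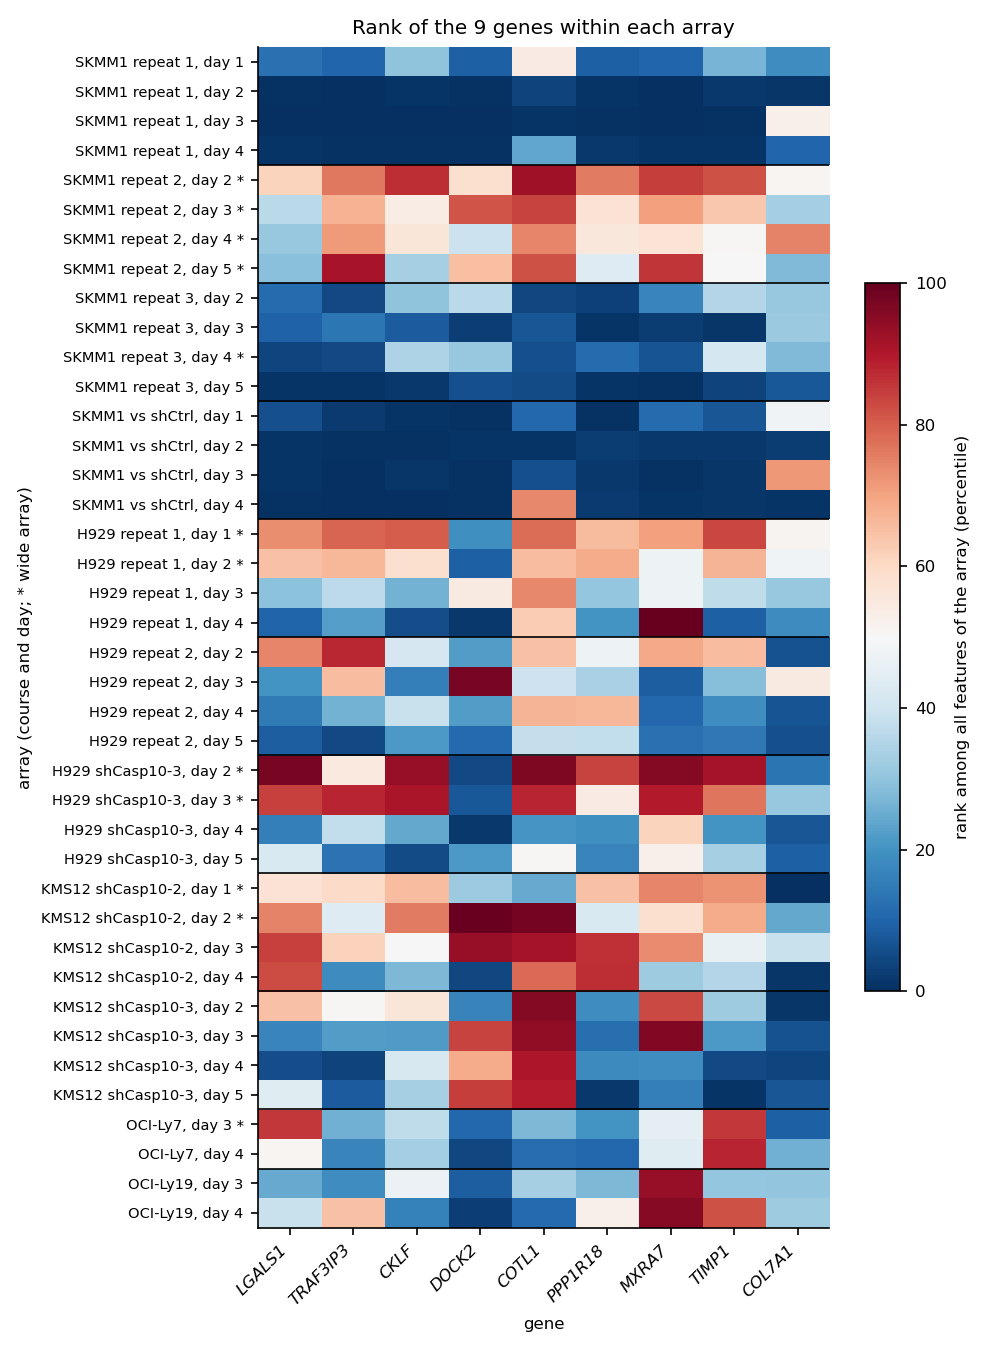
Percentile of each of the 9 genes (horizontal axis) among the 9681 features of an array, for each of the 40 arrays (vertical axis, by course and day; an asterisk marks a wide array), with blue for low and red for high ranks. Days 2 to 4 of SKMM1 repeat 1 and against shCtrl form blue bands broken only by COTL1 and COL7A1, and SKMM1 repeat 2, with its heavy low tail, is mostly red.

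Over the course means of days 2 to 4 the 9 genes had SKMM1 means between -1.03 ± 0.32 for LGALS1 and -0.40 ± 0.63 for COTL1 (SD, n = 3 courses), and the SD exceeded the size of the mean for TRAF3IP3 (-0.80 ± 0.83), CKLF, COTL1 and MXRA7. The median over the 9 genes was -0.70, against -0.21 over all features. Without the wide arrays, which leaves 2 courses, the 9 means ran from -1.16 (PPP1R18) to -0.28 (COL7A1), with a median of -0.92 against 0.14 over all features. With the sign of repeat 2 turned the means ran from -0.80 to 0.11 (COL7A1 above 0), and with the sign of repeat 3 turned from -0.54 to 0.13 (COTL1 above 0). The median over the 9 genes against shCtrl was -1.58 on the mean of days 2 to 4.

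Counts are read against the share of all 9681 features with the same pattern. On the 7 SKMM1 arrays against uninduced cells that were not wide, 8 of the 9 genes were below 0 every time, all but COL7A1, and 6.28% of all features were. With the sign of repeat 3 turned 0 of the 9 genes and 2.39% of all features were. On the 4 arrays against shCtrl 7 of the 9 genes were below 0 every time, all but COTL1 and COL7A1, and 22.5% of all features were. These arrays chose the genes, and nothing is read from the counts. In limma fitted on course means of all arrays, 0 of the 9 genes and 0% of the features passed the adjusted threshold of 0.05 in the SKMM1 response (unadjusted p under 0.05 for 4 genes and 248 features). A second limma fit took single arrays of days 2 to 4 without the wide ones, with the course as a random block. It thus held fewer arrays than the counts above. In that fit 5 of the 9 genes (LGALS1, TRAF3IP3, CKLF, COTL1 and PPP1R18) and 2.13% of the features passed. That count went to 1 without either H929 course with shCasp10-2 (11 and 19 features called), without either KMS12 course (14 and 3) or without SKMM1 repeat 1 (844), to 7 without OCI-Ly7 (1374) or OCI-Ly19 (1130), and to 0 with the sign of repeat 3 turned (0 features). These counts, too, come from the arrays that chose the genes, and nothing is read from them.

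The response of the same genes in H929 was tested. H929 entered the choice through TIMP1, COL7A1 and the differences between lines, so the test is not fully independent of it. No gene of the set passed: limma called 0 of 9 genes and 0% of the features on course means, with 2 of the 9 genes (DOCK2 and COL7A1) and 205 features at an unadjusted p under 0.05. DOCK2 had a fitted mean of -1.83 (SE 0.65, adjusted p = 0.994) with all arrays and -0.36 (SE 0.35) on single arrays without the wide ones. COL7A1 had -0.81 (SE 0.30) and -0.41 (SE 0.25), given as a description. The median over the 9 genes was -0.11, against -0.30 over all features. With each array centred on its median it was 0.0043, so its sign depends on the centring, which moved the median of all features to -0.19. On single arrays without the wide ones 0 of 9 genes and 0% of the features passed (0 genes and 445 features at an unadjusted p under 0.05). On its 8 arrays that were not wide CKLF was the only one of the 9 genes always below 0 (-0.70 to -0.016, median -0.26), as were 1.98% of all features.

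In KMS12 limma called 0 of 9 genes and 0% of the features on course means (1 gene, COL7A1, and 91 features at an unadjusted p under 0.05). COL7A1 had a fitted mean of -1.26 (SE 0.36); it, COTL1 and TIMP1 were chosen partly on these arrays, so their values and their part in the counts are a description. On single arrays without the wide ones 0 of 9 genes and 0% of the features passed (2 genes and 687 features at an unadjusted p under 0.05), with COL7A1 at -1.10 (SE 0.29) and COTL1 at 0.39 (SE 0.16). COTL1 was above 0 and COL7A1 below 0 on all 6 arrays that were not wide. Always below 0 on these arrays were 4 of the 9 genes (TRAF3IP3, CKLF, TIMP1 and COL7A1), beside 11.6% of all features. The median over the 9 genes on course means was -0.12, against -0.19 over all features.

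In the lymphoma lines limma called 0 of 9 genes and 0% of the features on course means (1 gene, TIMP1, and 730 features at an unadjusted p under 0.05). TIMP1 had a fitted mean of 1.21 (SE 0.46, adjusted p = 0.648), which rests on OCI-Ly7. On single arrays without the wide ones 0 of 9 genes passed, while 8.73% of the features did (2 genes and 27.3% of the features at an unadjusted p under 0.05). There TIMP1 was at 0.82 (SE 0.32, adjusted p = 0.109), COTL1 at -0.47 (SE 0.19, adjusted p = 0.119) and DOCK2 at -0.95 (SE 0.46, adjusted p = 0.193). On the 3 lymphoma arrays outside the wide ones, always below 0 were 4 of the 9 genes (CKLF, DOCK2, COTL1 and COL7A1), beside 20.4% of all features. Without OCI-Ly19 the lymphoma value of TIMP1 was 1.76, that of 1 array, day 4 of OCI-Ly7. The 4 TIMP1 probes read 4.63, 0.15, 1.73 and 0.52 on that array.

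The hairpins shCasp10-3 and shCasp10-2 were compared within H929 and KMS12. Limma called 0 of 9 genes and 0% of the features on course means (0 genes and 279 features at an unadjusted p under 0.05). The differences, shCasp10-3 minus shCasp10-2, ran from -1.56 (SE 0.92) for DOCK2 to 0.28 (SE 0.57) for MXRA7, with a median of -0.057, against 0.017 over all features. On single arrays without the wide ones 0 of 9 genes and 0.0413% of the features passed (1 gene and 6.08% of the features at an unadjusted p under 0.05). That gene, PPP1R18, was at -0.49 (SE 0.19, adjusted p = 0.798). A p that misses the threshold does not show that the hairpins act alike.

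The differences between SKMM1 and the other lines took part in the choice of genes, so the counts below are descriptions from which nothing is read. In the fit of course means 0 of 9 genes and 0% of the features were called between SKMM1 and H929, KMS12 or lymphoma (0, 0 and 3 of the 9 genes at an unadjusted p under 0.05, and 53, 79 and 364 features). The same calls were 0 of 9 and 0% on single arrays without the wide ones (6 of the 9 genes in each difference at an unadjusted p under 0.05, and 1155, 1816 and 1244 features). Between SKMM1 and KMS12 that count went to 1 without KMS12 shCasp10-3 (PPP1R18, -1.45, with 31 features called) and without OCI-Ly19, OCI-Ly7 or SKMM1 repeat 1 (COTL1, -1.09, -1.09 and -1.05, with 20, 18 and 815 features called). On those single arrays the median difference over the 9 genes was -0.68 from H929, -0.87 from KMS12 and -0.94 from lymphoma, against 0.15, 0.20 and 0.069 over all features. COL7A1 was the exception in each case, with differences of 0.10 from H929, 0.80 from KMS12 and 0.072 from lymphoma. With signs as deposited, every one of the 7 SKMM1 arrays against uninduced cells that were not wide lay below every such H929 array for 1 of the 9 genes (0.145% of features), below every KMS12 array for 2, COTL1 and PPP1R18 (0.403%), and below every lymphoma array for 3, LGALS1, PPP1R18 and MXRA7 (2.4%). The 4 arrays against shCtrl lay below every such H929 array for 7 of the 9 genes (5.45% of features), below every KMS12 array for the same 7 (7.56%) and below every lymphoma array for 6 (11.4%). The 7 were all but COTL1 and COL7A1, and DOCK2 was the one lost against lymphoma.

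A total of 3 genes had more than 1 probe. On the 11 SKMM1 arrays that were not wide the gap between the highest and lowest probe had a median of 0.21 for LGALS1 (2 probes, at most 0.59), 0.39 for PPP1R18 (2 probes, at most 0.83) and 0.33 for TIMP1 (4 probes, at most 1.18). Against shCtrl the LGALS1 probes read -0.80 and -1.01 on day 1 and -1.84 and -1.83 on day 4. In OCI-Ly7 the TIMP1 probes disagreed: 2 of them read 4.07 and 5.89 on day 3 and 4.63 and 1.73 on day 4, while the other 2 read 0.14 and 0.50 on day 3 and 0.15 and 0.52 on day 4. The TIMP1 mean of that line therefore depends on which probes are used.

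**Figure D4:**
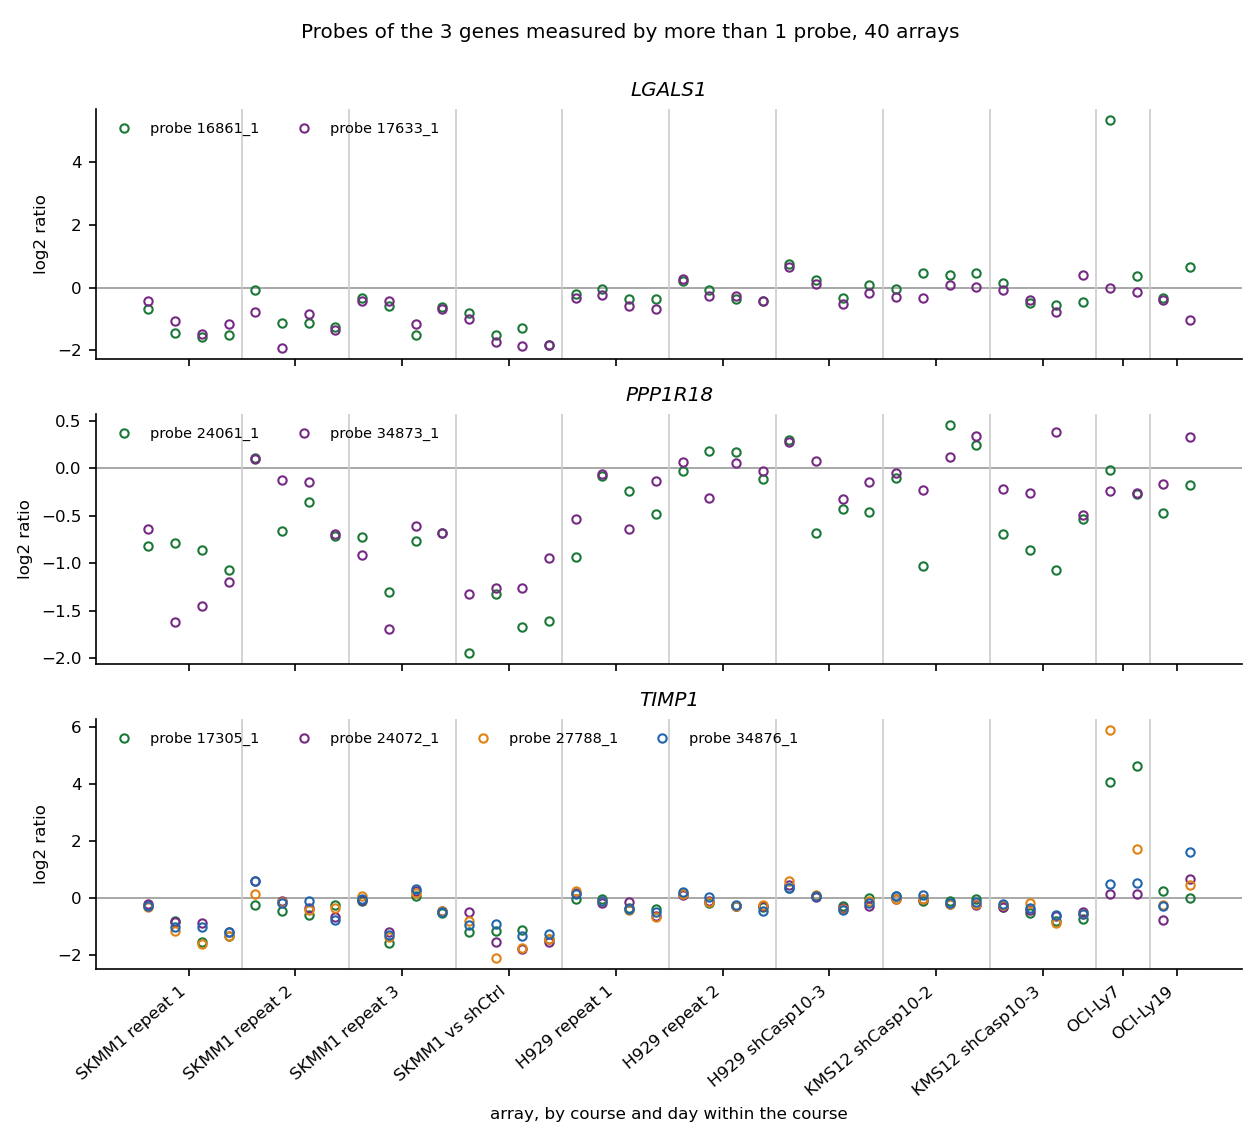
Log2 ratio (vertical axis) of each probe of LGALS1, PPP1R18 and TIMP1 on the 40 arrays (horizontal axis, grouped by course and by day within a course). The widest gaps are those of OCI-Ly7, where 1 LGALS1 probe reaches 5.34 and 1 TIMP1 probe reaches 5.89, while the PPP1R18 probes lie close together there.

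Correlations among the genes within SKMM1 are given as a description. Over its 11 arrays that were not wide, each centred on its median, Spearman's correlation of a gene with the mean of the other 8 was 0.95 for LGALS1, 0.90 for CKLF, 0.88 for TRAF3IP3, 0.86 for MXRA7, 0.83 for DOCK2, 0.68 for TIMP1, 0.51 for PPP1R18, 0.29 for COTL1 and 0.20 for COL7A1. Over the 17 arrays of the other lines it ran from -0.30 for MXRA7 to 0.42 for LGALS1. Arrays of a course share cells and days, and the SKMM1 arrays chose the genes for low ratios. No share of all features was counted for these correlations, so nothing is read from them. The named genes outside the set most like its mean over the 28 arrays were PSMB9 (Spearman's correlation 0.85), NEK6 (0.84), TPST2 (0.84), CYB5B (0.82), CTNNA1 (0.80), VEGFB (0.80), TIMP2 (0.80), WSB2 (0.80), ERCC1 (0.78) and TINF2 (0.77). SKMM1 gives 11 of the 28 points, so this likeness holds the difference between lines, and within the 11 SKMM1 arrays it was between 0.24 (VEGFB) and 0.67 (PSMB9). With each array centred on its median, PSMB9, an immunoproteasome subunit, averaged -0.53 on the 7 SKMM1 arrays against uninduced cells and -0.72 against shCtrl. Centred in the same way, TIMP2, a relative of TIMP1, averaged -0.46 and -0.55.

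Related genes outside the set were described through lists, on single arrays without the wide ones, where the SKMM1 response was above 0 for most features (median 0.14, 39.4% below 0, 26% at an unadjusted p under 0.05). Of all features 2.13% passed the adjusted threshold there, and nothing is read from a single SKMM1 call in a list. In the fit of all course means most features were below 0 (median -0.21, 70.4% below 0), and the lists were too: 23 of the 26 actin genes (median -0.34), 29 of 36 matrix genes (-0.28), 15 of 19 chemokine genes (-0.36) and 10 of 12 TRAF3 partners (-0.30) were below 0. Of 26 measured actin cytoskeleton genes, 18 were below 0 in SKMM1 (median -0.31) and 1 passed, LIMK1, a kinase that keeps actin filaments from being cut (-0.62, SE 0.14). LIMK1 lies outside the rule for naming genes and was chosen after its values were seen. The lowest means over courses without the wide arrays were -0.67 for ZYX, an adhesion protein (SE 0.73), and -0.63 for PFN1, the actin monomer binder profilin (SE 0.28). The highest were 3.10 for MYL12A (SE 1.66) and 1.01 for GSN, the actin severing protein gelsolin (SE 0.41). ZYX averaged -0.068 in repeat 1, -1.28 in repeat 3 and -0.14 against shCtrl, so its mean rests mostly on repeat 3. MYL12A averaged 0.69 in repeat 1, 5.51 in repeat 3 and 0.50 against shCtrl, so its mean rests on repeat 3, whose direction is not settled. The other highest genes of each list named here also averaged more in repeat 3 than in repeat 1, as CCL22 did (3.44 against 0.45).

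Of 36 genes of matrix and metalloproteinases 9 were below 0 in SKMM1 (median 0.38). Of them 1 passed, PLOD1, a lysyl hydroxylase of collagen (-0.74), beside 2.13% of all features. The list lay above the median of all features in this fit and below it on all course means. Over courses PLOD1 was at -0.72 and TIMP2 at -0.44, while COL3A1 was at 1.69 and COL9A2 at 1.82. Of 19 chemokine, receptor and CMTM genes 4 were below 0 (median 0.49) and 0 passed (8 at an unadjusted p under 0.05 in limma). Over courses CCL3 was at -0.65 and CCL5 at -0.62, against CCL22 at 1.94 and CCR4 at 1.72. CCL3 averaged -1.12 in repeat 1 and -0.17 in repeat 3, and CCL5 averaged -1.24 and -0.011. Against shCtrl these 2 genes averaged -1.11 and -1.25. Of 12 genes of TRAF3 and its partners 5 were below 0 (median 0.26) and 0 passed (1 at an unadjusted p under 0.05 in limma), with TNFRSF13C, the BAFF receptor, at -0.40 and TRAF3 at -0.30 against LTBR at 0.90 and TANK at 0.42. The only measured gene of the galectin list was LGALS3BP, which encodes a galectin ligand and not a galectin. It was at -0.10 on single arrays and at -0.086 on course means without the wide arrays. In the lymphoma lines 7 of the 26 actin genes fell in the single-array fit, with values from -1.77 (ARPC2, SE 0.32, adjusted p = 0.0116) to -0.69 (EZR, SE 0.18, adjusted p = 0.0321), and 0 rose; the others were ACTB, ACTG1, PFN1, TMSB4X and VCL. In the same fit TIMP4, SPARC and CTSB rose and PLOD2, P4HA1, CMTM6 and TNFRSF13C fell. In H929, in KMS12 and between the hairpins 0 of the 94 list genes passed limma's adjusted threshold (2, 6 and 5 at an unadjusted p under 0.05). The 3 arrays behind the lymphoma values also gave calls for 8.73% of all features.

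Markers of other cell types were read only as responses. In the single-array fit 8 of 10 T and NK cell markers were below 0 in SKMM1 (median -0.34; 0 past limma's adjusted threshold and 3 at an unadjusted p under 0.05), as were 6 of 8 plasma cell markers (median -0.059), 2 of 4 myeloid markers (median 0.21) and 1 of 6 mature B cell markers (median 0.43), while 3 of 3 stromal markers were above 0 (median 1.57). On all course means the counts were others: 10 of 10 T and NK cell (median -0.54), 3 of 8 plasma cell (0.051), 4 of 4 myeloid (-0.58), 6 of 6 mature B cell (-0.44) and 3 of 3 stromal markers (-0.52) were below 0. Their part in the values of the 9 genes was not tested.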

How the data were processed

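The values are log2 ratios by reading, deposited by the authors as 1 processed table of 15246 probes and 40 arrays with 0 missing values; for the log base, background correction and normalisation the entry is: not given in the sources used here. Array medians were not 0. Without intensities the signal over background is unknown, and the number of arrays limits the precision. Dyes were never swapped, so any dye effect stays in each response and cancels only in differences.

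Probes were named through the platform annotation, which is old (10169 with 1 symbol, 4 with several, 5073 not listed). Probes of a gene were averaged, giving 9681 features. A replicate is a course, meaning all days of a line with a hairpin in a repeat. For 5 arrays the database number set the course: the SKMM1 arrays of day 5 labelled repeat 1 and repeat 2 went to repeats 2 and 3, and the day 1 array of SKMM1 and those of days 1 and 5 of H929 went to SKMM1 repeat 1, H929 repeat 1 and H929 repeat 2. Nothing says that courses were separate cultures, and p-values then cover the spread among these samples alone, which may be technical. Limma 3.58.1 in R 4.3.3 was fitted on 10 course means of days 2 to 4 (days 3 and 4 for lymphoma), with Benjamini-Hochberg adjustment over all features at 0.05. A second fit used single arrays of days 2 to 4 without the wide ones, with the course as a random block. Arrays of days 1 and 5 were thus not in it, whereas counts over arrays that were not wide kept all days. The difference between SKMM1 and lymphoma used days 3 and 4 of every course in both fits. The fit was tested on simulated data. Tables and figures were made with Python 3.11.15, pandas 2.3.3, numpy 2.4.6 and matplotlib 3.10.9.

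The members and the lists were chosen with earlier results of these data known. Results of 1 list are not reported here. Named in the text are the 9 genes, CASP10, list genes past the threshold in H929, KMS12, lymphoma or the hairpin comparison, the 2 lowest and 2 highest of a list by the SKMM1 mean without the wide arrays, and the 10 named genes most like the mean of the 9. Alternatives were the wide arrays left out, centring, scaling, turned signs, all days, and each course left out; those listed as added were chosen after the data were seen.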

Additional observations from a re-analysis of the deposited data

Results flagged for a closer look

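In 45 sets of a gene and a group of 4 to 8 arrays, 5 arrays stood far from the others of their group. The cutoff flags about 1 in 20 sets when values are independent and normally distributed. Arrays here are days of shared courses and mix wide arrays with others, so that rate need not hold. Nothing is read from the count. CKLF was at -0.36 on day 3 of KMS12 with shCasp10-3, against -0.096 to -0.048 on the other 3 days. PPP1R18 was at 0.286 on day 2 of H929 with shCasp10-3, a wide array, against -0.378 to -0.30 on the others. MXRA7 was at 1.431 on day 4 of H929 repeat 1, against -0.637 to 0.186 on the other 7 arrays. TIMP1 was at -0.8502 on day 1 against shCtrl, against -1.496 to -1.4185 on days 2 to 4. COL7A1 was at -2.53 on day 1 of H929 repeat 1, a wide array, against -0.606 to 0.094 on the others.

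In 5 sets of a gene and a pair of groups, one group was above 0 on every array. The other group was below 0 on every array. These differences were not tested. Each pair held a lymphoma line with few arrays, where a shared sign is common: 12.3% of all features were below 0 on every lymphoma array. LGALS1 was also chosen on its SKMM1 arrays. No share of all features was counted for such pairs, so nothing is read from the 5 sets. LGALS1 was below 0 in OCI-Ly19 and above 0 in OCI-Ly7 (difference of means -1.665, from -0.2777 in OCI-Ly19 and 1.3873 in OCI-Ly7). It was likewise above 0 in OCI-Ly7 and below 0 in SKMM1 (difference 2.3716, from 1.3873 and -0.9843), and in both cases the OCI-Ly7 mean rests on 1 probe of a wide array. COTL1 was above 0 in KMS12 with shCasp10-3 (mean 0.4748), against -0.613 in OCI-Ly19 (difference 1.0877) and -0.1345 in OCI-Ly7 (difference 0.6093). TIMP1 was below 0 in KMS12 with shCasp10-3 (mean -0.4817), against 2.2032 in OCI-Ly7 (difference -2.6848), where its probes disagree.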

How the results depend on the processing

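The count of called genes was 0 in all 8 comparisons on course means, and it stayed at 0 in 205 of the 222 alternatives. The other 17 were single-array fits without the wide arrays, of which the fit with the course as a random block was planned and the rest were chosen after the data were seen. In the SKMM1 response that fit called 5 genes, beside 2.13% of the features. Leaving out 1 course, over all fits, the count ran from 0 to 7. Between SKMM1 and KMS12 leaving out 1 course gave 0 to 1 genes. The features called beside the counts of 1 and 7 are given above. The SKMM1 arrays chose the genes, so nothing is read from these counts. Course means without the wide arrays called 0 genes in every comparison. The median over the 9 genes against shCtrl was -1.579 on days 2 to 4 and -1.4185 over all days. The SKMM1 means of single genes were above 0 in 2 of 81 alternatives (COL7A1 with the sign of repeat 2 turned, COTL1 with that of repeat 3 turned), and 4 moved by more than 1 SD over courses, all of them with the sign of repeat 2 or 3 turned. The cause was not tested. The labels do not pair the samples of SKMM1 and H929 by repeat number. Deviations of repeat 1 from the group means correlated at -0.603 between the lines. Among repeats 1 and 2 the wide arrays lay in repeat 2 for SKMM1 and in repeat 1 for H929. This value therefore cannot show whether the repeats pair. With the replicate block on repeats 1 and 2 of both lines limma called 0 genes between SKMM1 and H929 (1 feature at an unadjusted p under 0.05), and 0 on the same 4 courses without it (3 features). Depth is not defined for these ratios, and without intensities dim probes could not be told from bright ones.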
